A study of Bos taurus with 13 samples.

Results

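SPTLC1, ASAH1, SCARB2 and HYAL1 are genes of sphingolipid metabolism and of the lysosome, and were followed here over 13 arrays of a bovine mammary cDNA platform, each hybridised with 2 RNAs. They are 4 of the 703 genes measured, and were found as the spots whose only annotated symbol is one of those names. Each was printed as 1 clone of 3 spots, and all 12 of these spots gave a ratio on every array. Their NCBI gene identifiers are 614165 for SPTLC1, 510620 for ASAH1, 533177 for SCARB2 and 515397 for HYAL1. On 2 arrays lactating mammary gland was compared with prepubertal gland of a Holstein heifer, which weighed 136 kg on array 1 and 227 kg on array 2 (a keyword of array 2 reads post-pubertal, and its title and channel were followed). On 8 arrays a tissue was compared with a cell line named BovMac as reference: adipose, adrenal and lymph tissue, ileum, liver, spleen, thymus, and prepubertal mammary gland (136 kg Holstein heifer). A single array compared postpubertal gland (310 kg heifer) with prepubertal gland (136 kg), and 2 compared the reference with itself, the line being spelled BovMav for the first. The labels give weights but neither age nor pooling of the animals.

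Sphingolipids are membrane lipids built on a long-chain base. SPTLC1 encodes a subunit of serine palmitoyltransferase, the enzyme of the endoplasmic reticulum that makes this base from serine and palmitoyl-CoA and so starts the pathway. ASAH1 encodes acid ceramidase, the lysosomal enzyme that splits ceramide into sphingosine and a fatty acid, so that it works at the breakdown end. SCARB2, also known as LIMP-2, spans the lysosomal membrane and carries the enzyme that degrades glucosylceramide to the lysosome. HYAL1 encodes a lysosomal hyaluronidase, which cuts the matrix polysaccharide hyaluronan. In lactating gland, sphingolipids leave the cell in the membrane that surrounds milk fat globules.

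Values are the authors' deposited log ratios, centred on the median of each array. The base of the logarithm is not given in the sources used here, so differences are stated in log units and not as folds. Channels are labelled by RNA but not by dye, and the direction of the ratio is not stated. On lactating arrays 1 and 2 the casein gene CSN1S1 lay at 1.61 and 2.56 and CSN2 at 0.76 and 0.79. The caseins CSN3, at 0.98 and -0.16, and CSN1S2, at -0.19 and 0.39, changed sign between the arrays. Of 12 features of milk secretion genes, 3 passed the limma test described below on the positive side and 0 on the negative side. Their median was 0.38. On the basis of CSN1S1 and CSN2 only, the positive side of these arrays is likely that of lactating RNA. It is called the casein side here. Lactating RNA was in the same channel of both arrays, and the part of dye bias was not tested. On the tissue arrays the direction is not settled, and with the sign turned every high tissue value becomes a low one. The lowest correlation between any pair of tissue arrays, across features, was -0.24 for adrenal tissue with liver. A feature is the mean of the spots of 1 annotated sequence, or of 1 unannotated clone, and between 1134 and 1178 of the 1179 features were measured on any 1 array. The arrays offered little to check the labelled tissues with: of the markers listed for each, 3 of 9 hepatocyte genes were measured, at -1.10 to 0.25 in liver, and 0 of the adrenal cortex, adipocyte, ileum epithelium, thymus, T cell, B cell and macrophage genes. The 3 measured leukocyte genes had medians of -0.27 in lymph tissue, -0.34 in spleen and -0.17 in thymus. The 2 measured class II antigen presentation genes had medians of 0.75, 0.62 and 0.18 there, on the opposite side of 0. The 4 genes were chosen by values of these same arrays, SPTLC1 and ASAH1 from the lactating arrays, SCARB2 from ileum and adrenal tissue, HYAL1 from spleen and ASAH1 also from lymph tissue. Those values are described and not tested.

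**Figure D1:**
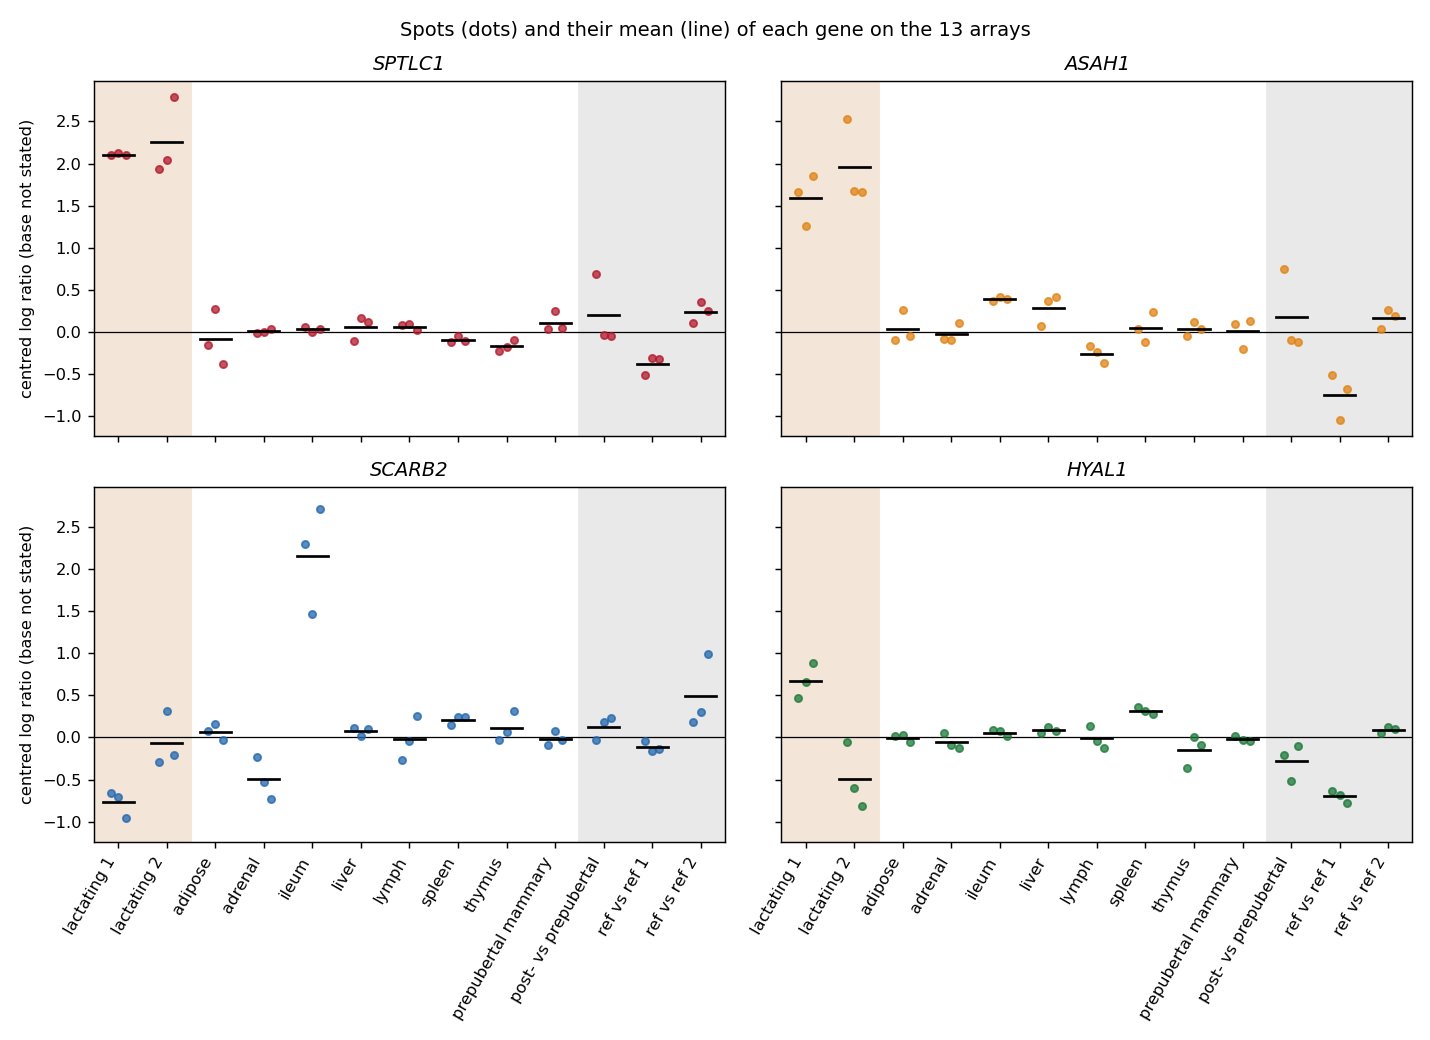
Log ratio (vertical axis, log units of unstated base) of the 3 spots of each gene (dots) and their mean (line) on each of the 13 arrays; the lactating arrays are shaded tan, and the postpubertal and reference against reference arrays grey. SPTLC1 and ASAH1 stand above 1 unit on both lactating arrays and have means within 0.4 units of 0 on all 8 tissue arrays, SCARB2 has a mean above 2 units on the ileum array alone, and HYAL1 lies on opposite sides of 0 on the 2 lactating arrays.

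SPTLC1, at the entry of sphingolipid synthesis, lay far on the casein side of both lactating arrays. On array 1 its spots lay at 2.10, 2.11 and 2.12, and on array 2 the lowest, median and highest spot were at 1.94, 2.05 and 2.79. All 6 spots thus lay on the same side, with a mean of 2.18 ± 0.11 (SD over arrays, n = 2), and the gap of 0.15 between the arrays was smaller than the SD of 0.46 over the spots of array 2. Among all features it ranked 14 of 1172 from the top on array 1 and 17 of 1170 on array 2. ASAH1, at the breakdown end, followed at 1.59 ± 0.30 (SD, 3 spots) on array 1 and 1.96 ± 0.50 on array 2, with ranks of 24 and 23. Its spots ran from 1.26 to 1.85 on array 1 and from 1.66 to 2.53 on array 2, so that the spots of the 2 arrays overlapped and none lay near 0. The mean over arrays was 1.77 ± 0.26 (SD, n = 2). On array 1 every spot of ASAH1 lay below every spot of SPTLC1, whereas on array 2 the spots of the 2 genes overlapped. Each of these values is a ratio within its own gene's spots, and says nothing of which transcript was the more abundant.

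The 2 enzymes were not alone at this height. Of all features, 3.17% (37 of 1167) were 1 unit or more to the casein side on both arrays, and 2.06% (24 of 1167) were 1.5 units or more, beside 2 of the 4 members in each count. Since these values chose SPTLC1 and ASAH1, nothing is read from those counts. The 30 spots listed next to SPTLC1 in the deposited table had a median of 0.01 on array 1 and 0.09 on array 2, and those next to ASAH1 had 0.13 and 0.30. Beside SPTLC1 these spots ran from -1.28 to 3.96 on array 1 and from -0.45 to 3.83 on array 2. Beside ASAH1 they ran from -0.73 to 3.18 and from -0.72 to 3.87.

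On arrays of the same tissue at other stages neither enzyme stood out. On the array of prepubertal gland against the reference, SPTLC1 was at 0.11 ± 0.12 (SD, 3 spots) and ASAH1 at 0.01 ± 0.18. On the array of postpubertal against prepubertal gland, whose direction is not settled and whose spots of 1 clone agreed least (mean Spearman rho 0.06), SPTLC1 was at 0.20 and ASAH1 at 0.18, and in both genes a single spot carried the mean. For SPTLC1 that spot was at 0.68 with the others at -0.05 and -0.04, and for ASAH1 it was at 0.75 with the others at -0.12 and -0.09. The medians of the spots were thus -0.04 for SPTLC1 and -0.09 for ASAH1.

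Where the reference was hybridised against itself, and a ratio of 0 would mean equal labelling, the 2 enzymes were off 0 on array 1, on the side opposite to their lactating values. SPTLC1 was at -0.38 ± 0.11 (SD, 3 spots) on reference against reference array 1 and at 0.23 ± 0.13 on array 2. ASAH1 was at -0.75 ± 0.27 and 0.16 ± 0.11, and HYAL1 at -0.70 ± 0.07 and 0.09 ± 0.04. ASAH1 ranked 30 and HYAL1 35 from the bottom of 1162 features on array 1, where 4.22% of features lay at least 0.6 units below 0. SCARB2 was at -0.11 ± 0.06 on array 1 and 0.50 ± 0.44 on array 2, the last with 1 spot at 1.00. No mean of the 4 genes reached 1 unit from 0 on either array, where 1.72% and 4.32% of features did. The spots of 1 clone agreed less on array 2 (mean Spearman rho 0.12) than on array 1 (0.57). With the mean of these arrays subtracted, SPTLC1 came to 2.26 and ASAH1 to 2.07 on the lactating arrays.

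SCARB2 and HYAL1, in contrast, differed between the 2 lactating arrays by more than their spots did within an array. SCARB2 was at -0.77 ± 0.16 (SD, 3 spots) on array 1, with all spots between -0.95 and -0.66, and at -0.06 ± 0.33 on array 2, with spots between -0.29 and 0.31. The spots of the 2 arrays did not overlap. Its mean of -0.42 ± 0.50 (SD, n = 2) did not pass (adjusted p = 0.201 by limma over 1167 features, of which 11.7% passed in either direction). The adjusted p ran from 0.0603 to 0.970 over 7 other settings. HYAL1 was at 0.67 ± 0.21 on array 1, with every spot above 0, and at -0.49 ± 0.39 on array 2, with every spot below 0. Opposite signs on the 2 arrays were found for 30.2% of features, and opposite signs with at least 0.4 units on each array for 1.03% (12 of 1167), HYAL1 among them. The limit of 0.4 units was not part of the planned tests, and nothing is read from that count. The mean of HYAL1 was 0.09 ± 0.82 (adjusted p = 0.860 by limma), and the adjusted p ran from 0.515 to 0.986 over the same settings. The heifers of these arrays differed in weight, and whether the same lactating RNA served both arrays is not stated, so that heifer, RNA and array cannot be told apart in this difference. It was not tested, with 1 array of each kind. On the array of postpubertal against prepubertal gland, HYAL1 was at -0.28 ± 0.22 (SD, 3 spots) with all spots below 0, rank 43 from the bottom of 1161 features, and SCARB2 was at 0.13 ± 0.14.

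**Figure D2:**
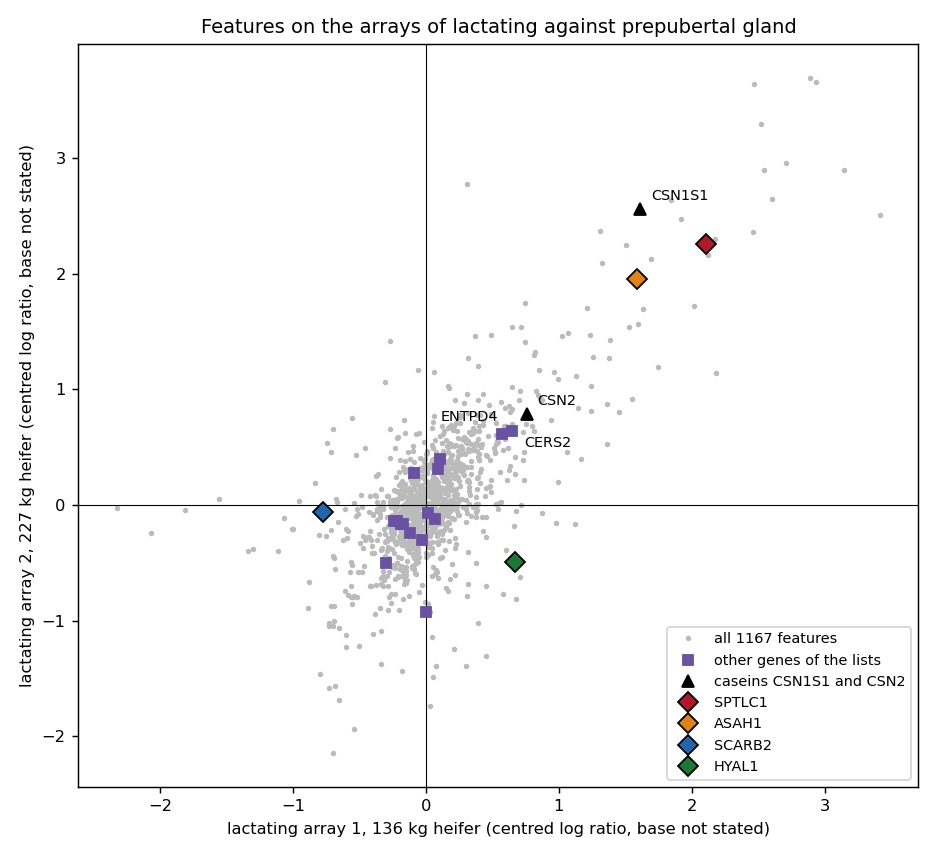
Log ratio of each of the 1167 features on lactating array 1 (horizontal axis) and array 2 (vertical axis), in log units of unstated base. SPTLC1 and ASAH1 lie with CSN1S1 at the upper right, SCARB2 lies at -0.77 and -0.06, HYAL1 lies in the lower right quadrant, and most other genes of the sphingolipid, lysosomal and hyaluronan lists lie near the origin, with CERS2 and ENTPD4 at about 0.6 on both axes.

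Across the 8 tissues SPTLC1 was nearly flat. It ran from 0.11 in prepubertal mammary gland through 0.06 in lymph tissue and liver, 0.03 in ileum, 0.01 in adrenal tissue and -0.09 in adipose tissue and spleen to -0.17 in thymus. All 8 values lay within 0.2 units of 0, and each tissue's spots overlapped those of the next in this order. In thymus, spleen and ileum the spots agreed closely (SD 0.07, 0.04 and 0.03), while in adipose tissue they ran from -0.38 to 0.27. The range of 0.28 units between the highest and lowest tissue was smaller than that of most features. Over all 1179 features the median range was 0.56, and 5.51% had a smaller range than SPTLC1. 

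ASAH1, in contrast, was highest in ileum and liver and lowest in lymph tissue on the scale as deposited. It stood at 0.39 ± 0.02 (SD, 3 spots) in ileum and 0.29 ± 0.18 in liver. The next 5 tissues lay close together, with 0.05 in spleen, 0.04 in adipose tissue, 0.03 in thymus, 0.01 in prepubertal mammary gland and -0.02 in adrenal tissue. Lymph tissue was lowest at -0.26 ± 0.11. The spots of lymph tissue lay below those of adrenal tissue, its neighbour in the order, but overlapped those of prepubertal mammary gland, where 1 spot was at -0.20. The spots of ileum overlapped those of liver and lay above those of the other 6 tissues, the highest of which was an adipose spot at 0.26. On the liver array, which spread less than that of ileum, ASAH1 ranked 62 of 1173 features from the top, against 146 of 1167 in ileum. With arrays scaled to the same spread the order of the first 2 turned, to 0.44 in liver and 0.26 in ileum.

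**Figure D3:**
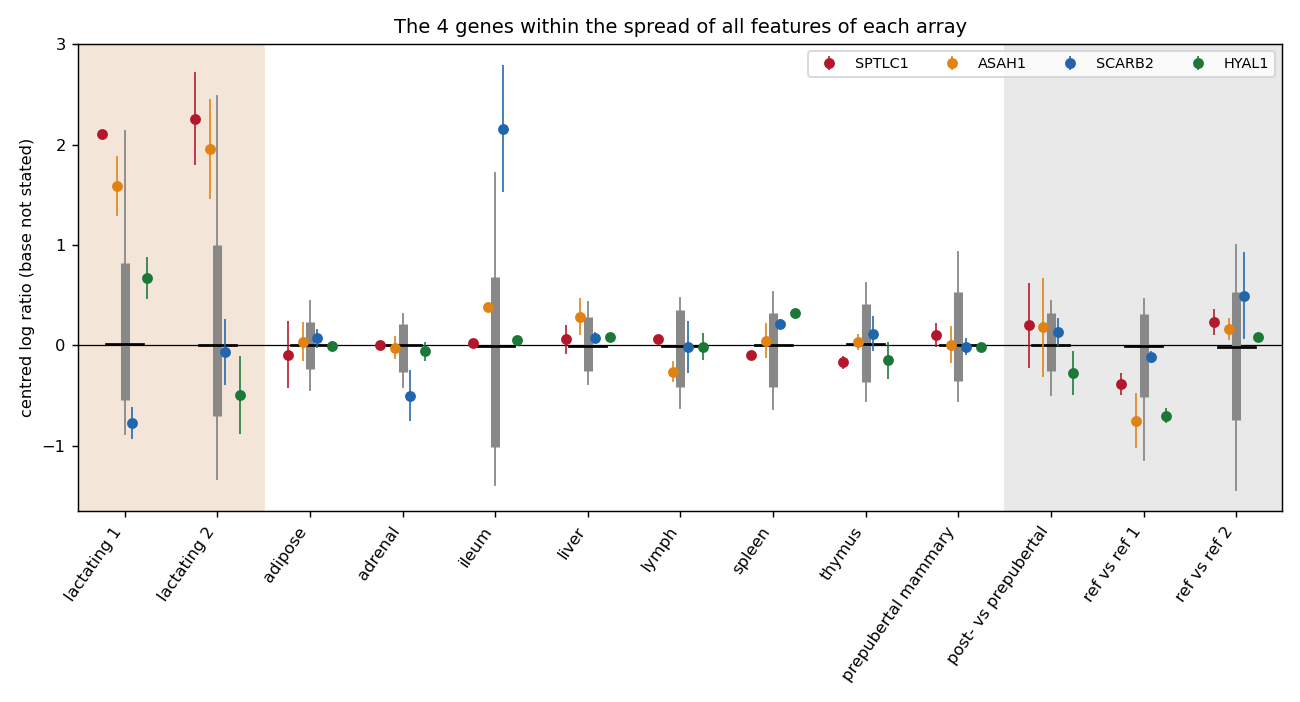
Mean log ratio of the 4 genes on each array (coloured points, bars are SD over 3 spots, vertical axis in log units of unstated base) beside the spread of all features (thick grey bar from the 5th to the 95th percentile, thin grey line from the 1st to the 99th, black line the median). The grey bars are widest on the 2 lactating arrays, the ileum array and reference against reference array 2, and SCARB2 in ileum lies above the thin line of its array.

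SCARB2 had the widest range of the 4 genes, and its ends were ileum and adrenal tissue, the values that chose it. Its spots ran from 1.47 to 2.71 on the ileum array, with a mean of 2.16 ± 0.63 (SD, 3 spots) and a rank of 7 among 1167 features. The 7 other tissues ran from 0.21 ± 0.05 in spleen through 0.12 in thymus, 0.08 in liver, 0.07 in adipose tissue, -0.01 in prepubertal mammary gland and -0.02 in lymph tissue to -0.50 ± 0.25 in adrenal tissue. The lowest ileum spot lay 1.47 units above 0 and the highest spot of any other tissue at 0.31, so the groups of spots did not overlap. On the ileum array 8.4% of features lay at least 1 unit from 0, and 9.1% (105 of 1154) had every spot above every spot of the 7 other tissues. These values chose the gene, and nothing is read from the counts. In adrenal tissue SCARB2 ranked 8 from the bottom of 1176 features, although its spots, from -0.73 to -0.23, overlapped those of lymph tissue. Without ileum the range over tissues was 0.71 units, against 2.66 with it, and still ended at the adrenal value. Without both, the means lay between -0.02 in lymph tissue and 0.21 in spleen. The wide range therefore only restates the values that chose the gene.

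The ileum array differed from most others in ways that move with this value. Its median absolute deviation was 0.25, against 0.095 to 0.18 on the other 7 tissue arrays. Among 144 consecutive spots without annotation, 69.4% were listed at 0 there and 67.4% on the mammary array, against at least 98.6% on the other 6. The share was also low on lactating array 1 (68.75%, against 100% on lactating array 2). On reference against reference array 1 it was 59.7%, against 100% on array 2. With arrays scaled to the same spread, SCARB2 was at 1.46 in ileum and 0.21 in spleen, the next tissue. Markers of other cells moved with it too. Both measured class II genes of 4 listed, CD74 and BOLA-DRB3, which serve antigen presentation, lay at 2.41 and 3.17 in ileum and between 0.01 and 1.04 in the 7 other tissues. The 3 measured leukocyte genes of 5 listed, PTPRC, LCP1 and RAC2, lay at 0.50, 0.10 and 0.85 in ileum and between -0.47 and 0.28 elsewhere. Of the 3 measured epithelial genes of 7 listed, EPCAM was at 1.94 and KRT7 at 0.06, and the 3 features of ELF5 were at 0.02, 0.29 and 1.86. Of the 3 measured stromal genes of 9 listed, COL5A2 was at -0.68 in ileum, the 2 features of POSTN were at -1.81 and -1.23, and TNC was at 0.23. Macrophage genes, of which 0 of 8 were measured, gave no value. The part of cell type and of array quality in the SCARB2 value was not tested. In whole tissue a different number of cells of a type and a different amount of RNA per cell cannot be told apart.

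HYAL1 had its highest tissue value in spleen, at 0.32 ± 0.04 (SD, 3 spots), with spots of 0.28, 0.31 and 0.36. Every one lay above the highest spot of the other tissues, which was 0.13 in lymph tissue. Such a separation held in spleen for 0.867% of features (10 of 1154), from which nothing is read, since the spleen value chose the gene. HYAL1 ranked 64 of 1176 features on the spleen array. The other tissues lay at 0.09 in liver, 0.06 in ileum, -0.0019 in adipose tissue, -0.01 in lymph tissue, -0.02 in prepubertal mammary gland, -0.06 in adrenal tissue and -0.15 in thymus, each overlapping the next. 7 of the 8 values were within 0.2 units of 0, and the range over tissues, 0.47 units, was below the median range of all features.

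Set side by side, the 4 genes did not all share a tissue order. Over the 8 tissue arrays Spearman rho was 0.86 for ASAH1 with SCARB2, 0.69 for ASAH1 with HYAL1 and 0.52 for SCARB2 with HYAL1. By Pearson r the same pairs came to 0.69, 0.25 and 0.20. For SPTLC1 rho was -0.24 with ASAH1, -0.43 with SCARB2 and 0.05 with HYAL1, and r was 0.03, 0.07 and 0.02. Neither measure was tested. Both include values that chose the genes, and rho rests on tissues whose spots mostly overlapped. SPTLC1 was highest in prepubertal mammary gland, ASAH1 and SCARB2 in ileum, and HYAL1 in spleen. SPTLC1 and HYAL1 were lowest in thymus, ASAH1 in lymph tissue and SCARB2 in adrenal tissue. Of the 32 values of the 4 genes on the tissue arrays only SCARB2 in ileum was at least 1 unit from 0, and that value chose the gene. Of all feature values on the 8 arrays, 1.39% were (131 of 9392). These arrays share the reference RNA, so an error in that RNA would enter all 8.

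Other enzymes of sphingolipid metabolism, lysosomal proteins and proteins of hyaluronan turnover were taken from lists of 78, 134 and 27 symbols, of which 13 genes besides the members were measured, by 15 features. The lists were chosen with earlier results known. On the lactating arrays 2 of these features passed limma, both to the casein side, and 0 passed in the other direction. An unadjusted p under 0.05 by limma was reached by 3 of the 15, and by 310 of all 1167 features. Over all 1167 features 8.31% passed on the casein side, against 3.34% on the other. CERS2, a ceramide synthase that attaches very long acyl chains, had 0.64 on each array, a mean of 0.64 ± 0.0049 (SD, n = 2) with an adjusted p of 0.0235 by limma. Its spots agreed less than its arrays, from 0.04 to 0.95 on array 1 and from 0.52 to 0.73 on array 2. ENTPD4, a nucleoside diphosphatase of Golgi and lysosome-related vesicles, was at 0.57 and 0.61, with spots from 0.45 to 0.68 over both arrays (adjusted p = 0.0319 by limma). With the reference against reference arrays subtracted in the fit CERS2 was at 0.90 and ENTPD4 at 0.57, and both calls were lost, with an adjusted p by limma of 0.247 for CERS2 and 0.258 for ENTPD4. CERS2 was itself at -0.66 ± 0.07 (SD, 3 spots) on reference against reference array 1. Without array 1 or array 2, with exact 0 kept or with arrays scaled to the same spread, neither passed, and with the median of the spots ENTPD4 did not (adjusted p = 0.0503 by limma). Over 9 alternatives the adjusted p by limma ran from 0.00839 to 0.668 for CERS2 and from 0.0133 to 0.456 for ENTPD4.

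The remaining members of these lists lay closer to 0. Among sphingolipid genes, the dihydroceramide desaturase DEGS1, which acts just after the ceramide synthases, was at -0.18 ± 0.06 (SD, n = 2) and the sphingosine 1-phosphate receptor S1PR1 at -0.17 ± 0.01. Of the AP-3 adaptor, which sorts membrane proteins to lysosomes, the delta subunit AP3D1 was at -0.40 ± 0.14 (adjusted p = 0.130 by limma, and 0.0429 at -0.50 on the deposited values, where it passed) and the mu subunit AP3M1 at 0.20 ± 0.16. The lysosomal membrane protein LAMP2 had 2 features, at -0.19 ± 0.07 and at -0.46 ± 0.66, the second with 0.0036 on array 1 and -0.93 on array 2. The 2 features of acid lipase LIPA, which frees cholesterol from its esters, were at -0.03 ± 0.06 and 0.25 ± 0.21. The sulfatase ARSB lay at -0.18 ± 0.02, SUMF1, which activates sulfatases, at 0.10 ± 0.26, the fucosidase FUCA1 at -0.03 ± 0.13 and the lysosomal transporter MFSD1 at -0.16 ± 0.19. The hyaluronan-binding proteoglycan VCAN was at -0.18 ± 0.09. In all, 4 of the 15 features were positive on both arrays, 7 negative on both and 4 of opposite signs. Their median was -0.16, against -0.0016 for all features.

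On the tissue arrays all 15 features stayed within 1 unit of 0, with ranges between 0.21 units for SUMF1 and 0.96 units for the second feature of LIPA. That feature stood at 0.92 in prepubertal mammary gland, while the first feature of the same gene was at -0.29 there. The features of LIPA therefore disagreed where the gene's value was largest. AP3M1 was also highest in prepubertal mammary gland, at 0.69, followed by thymus at 0.41. CERS2 was positive in all 8 tissues, from 0.05 in spleen to 0.32 in thymus, where its spots lay between 0.27 and 0.38. DEGS1 was highest in prepubertal mammary gland, at 0.22, and lowest in ileum, at -0.09. S1PR1 was at 0.29 in both ileum and spleen. LAMP2, like SCARB2 a major protein of the lysosomal membrane, was at -0.47 and 0.24 in ileum by its 2 features, against 2.16 for SCARB2.

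**Figure D4:**
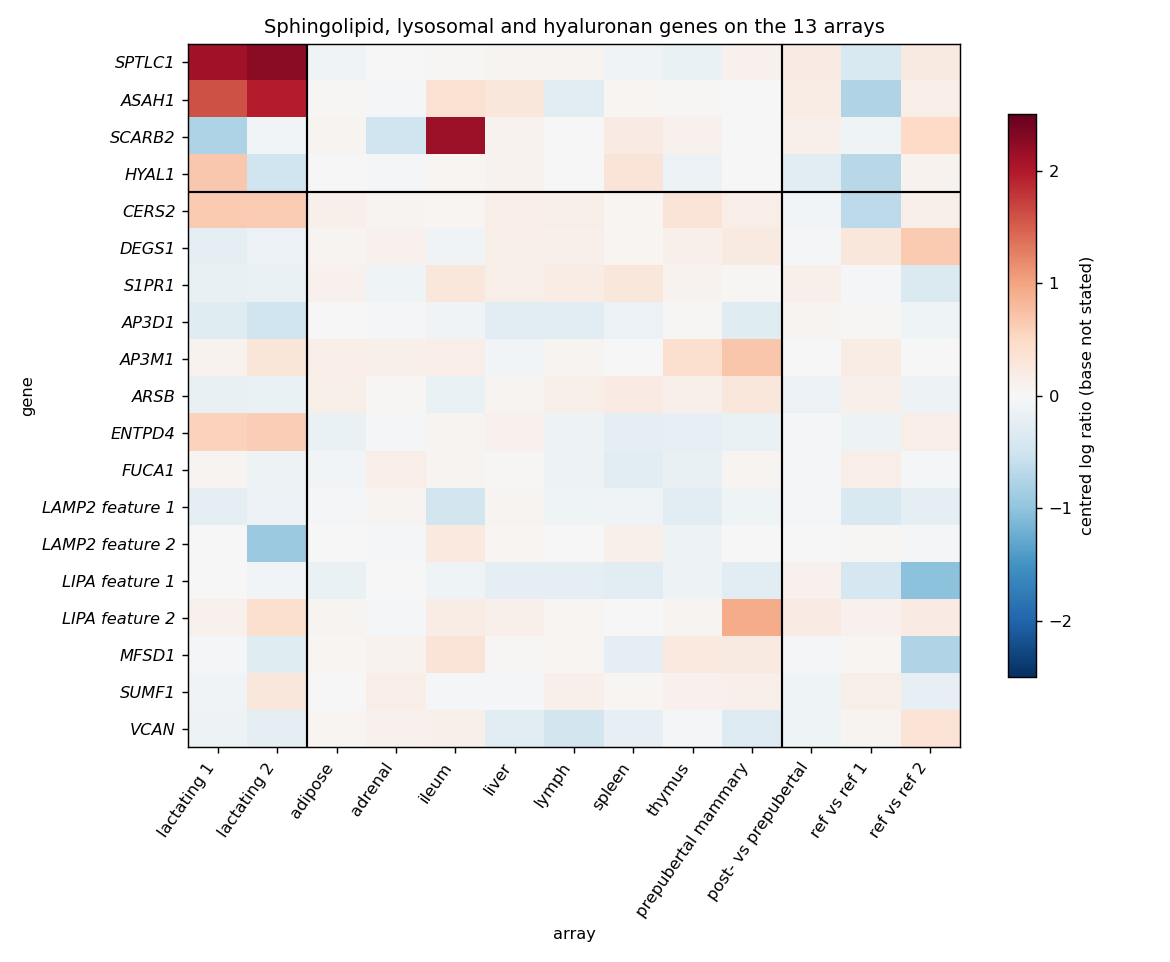
Mean log ratio (colour, log units of unstated base, red positive and blue negative) of the 4 genes (top rows) and of the 15 features of 13 other sphingolipid, lysosomal and hyaluronan genes (rows below) on the 13 arrays (columns; lactating left, tissues in the middle, other arrays right). The strongest colours are those of SPTLC1 and ASAH1 on the lactating arrays and of SCARB2 in ileum, and CERS2 and ENTPD4 are red on both lactating arrays.

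The genes most like each member were ranked by Pearson r over the 10 lactating and tissue arrays, among 690 genes with a value on all of them. These r rest mostly on the arrays where a gene is far from 0, and the tissue arrays share a reference. For SPTLC1 they were PLET1 (r = 0.99), SSBP2, AP2B1, ST6GAL1 and SERINC1 (each r = 0.98). SERINC1, of a family named for incorporating serine into membrane lipids, was at 0.87 and 0.90 on the lactating arrays. For ASAH1 they were AP2B1, ST6GAL1, the casein gene CSN1S1 and SSBP2 (each r = 0.98) and LZTFL1 (r = 0.97), so that AP2B1, ST6GAL1 and SSBP2 stood in both sets. CSN1S1 was also among the 5 nearest to ASAH1 by Spearman rho over the 10 arrays (0.90) and by r over the 8 tissue arrays (0.84). Over the 8 tissue arrays alone, none of the other 4 nearest genes of ASAH1 and none of the 5 of SPTLC1 was the same as over 10.

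For SCARB2 the 5 were NAALADL1 (r = 0.97), EP400 (0.96), WDR12 (0.95), CD74 (0.95) and EPCAM (0.94). All 5 had their largest value in ileum, from 1.62 for NAALADL1 to 3.37 for EP400, and 3 of the 5 remained when the 8 tissue arrays were used alone. By Spearman rho, which gives the ileum array no extra weight, 0 of the 5 remained, and SEC22B (0.92) and MAP7 (0.90) came first. For HYAL1 the 5 were ELOVL6 (r = 0.93), CDK5RAP3 (0.87), PHYH (0.85), PGRMC1 (0.85) and ACLY (0.85). Each was positive on lactating array 1 and negative on array 2, as HYAL1 was. Over the 8 tissue arrays alone 0 of these 5 genes remained, and by Spearman rho over 10 arrays 2 did. By Spearman rho the kappa-casein gene CSN3 (0.94) stood among the first 5, after HMG20B (0.98). ELOVL6 was at 0.58 and -0.77, PHYH at 0.31 and -0.79, and ACLY at 0.32 and -0.41.

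**Figure D5:**
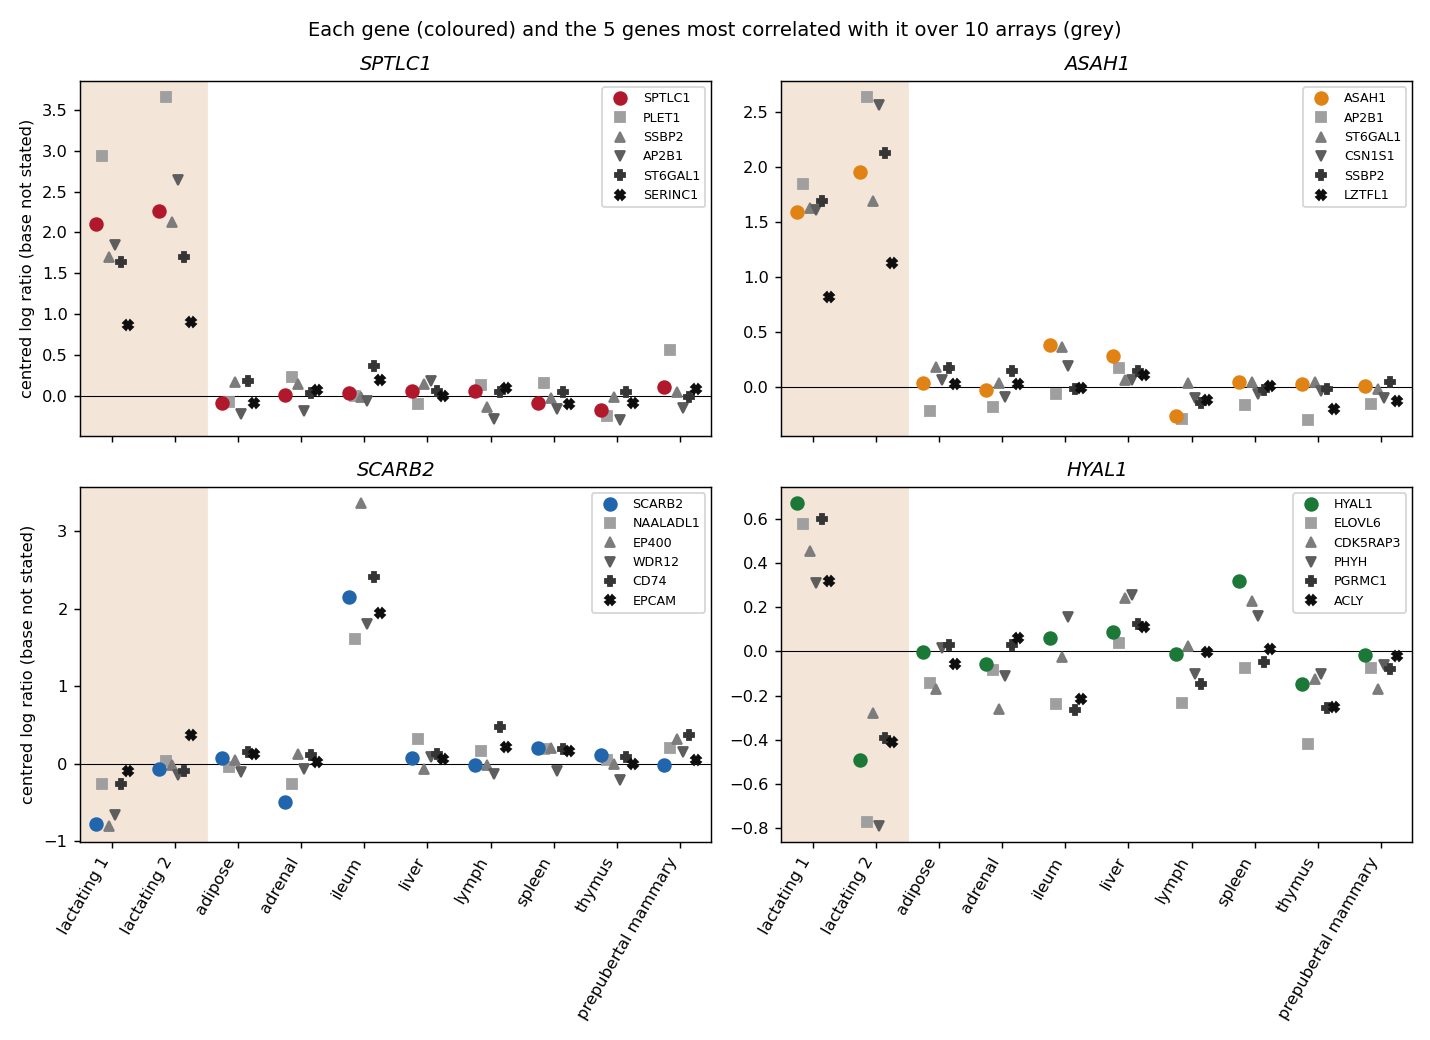
Log ratio (vertical axis, log units of unstated base) of each of the 4 genes (coloured circles) and of the 5 genes with the highest Pearson r with it (grey and black symbols) on the 2 lactating arrays (shaded) and the 8 tissue arrays. The genes nearest to SPTLC1 and ASAH1 are high on both lactating arrays, those nearest to SCARB2 are high in ileum, and those nearest to HYAL1 lie above 0 on lactating array 1 and below 0 on lactating array 2.

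In the RefSeq annotation of ARS-UCD2.0, where all 4 genes were found by identifier, HYAL1 lies between the hyaluronidase genes HYAL2 and HYAL3, SCARB2 between NUP54 and FAM47E, ASAH1 between FRG1 and PCM1, and SPTLC1 next to ROR2. 0 spots on the array named any of these neighbours, so that whether values extended to adjacent genes could not be seen.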

How the data were processed

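The authors' deposited table gave 1 log ratio per spot for 3888 spots on each of 13 two-colour arrays. How the authors corrected and normalized them, the log base and the direction are not given in the sources used. Array intensities were not used, so precision is limited by the number of arrays.

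Exact 0 was treated as no ratio, each array was centred on its median, spots sharing an accession (or a clone of 3 spots without one) were averaged where at least 2 gave a ratio, and features measured on 7 or more arrays were retained. This left 1179 of 1234 features, of which 782 named 1 gene. A two-sided limma test (version 3.58.1, R 4.3.3, lmFit then eBayes) compared the mean of the 2 lactating arrays with 0 for 1167 features, adjusted by Benjamini-Hochberg at 0.05. Each feature has 1 residual degree of freedom, so the spread is mostly pooled over features. The labels do not say whether the lactating arrays came from separate cows, so the p-values measure only the spread between these arrays. Tissue arrays have no replicate and were not tested. Python 3.11.15, numpy 2.4.6 and pandas 2.3.3 did the rest, and the limma code was tested on simulated data.

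The members and the gene lists were chosen with earlier results of these data known. The named genes are the members, every measured gene of the 3 pathway lists, the 5 genes nearest to each member by Pearson r, CSN1S1 and CSN2, plus markers of other cell types. CSN1S2, CSN3 and the genes nearest by Spearman rho were named after their values were seen. The limits of 0.4 and 0.6 units were likewise not part of the planned tests. Alternatives were the centring, the treatment of exact 0, scaling to the same median absolute deviation (MAD), the filters, the median of spots, leaving out each lactating array, subtraction of the reference against reference arrays, and 1 value per gene.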

Additional observations from a re-analysis of the deposited data

How the results depend on the processing

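SPTLC1 and ASAH1 stayed on the casein side in all 7 alternatives tried for each. Since lactating values chose both genes, nothing is read from that. With arrays scaled to the same MAD their means were 1.53 and 1.22, and ASAH1 came to 2.07 with the reference against reference arrays subtracted. Leaving out a lactating array gave 2.11 to 2.26 for SPTLC1, 1.59 to 1.96 for ASAH1, -0.77 to -0.06 for SCARB2 and -0.49 to 0.67 for HYAL1. On the deposited values HYAL1 was at -0.0089, which turned its sign. The cause of these changes was not tested. In ileum, SCARB2 was at 1.46 with arrays scaled, and ASAH1 at 0.26 with arrays scaled and 0.42 on the deposited values.

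The count of features called on the lactating arrays was 136, of which 71.3% lay on the casein side. It was 13 to 40 without 1 lactating array, where the lone array was assumed to vary like the reference against reference arrays, 20 with those arrays subtracted, 26 with exact 0 kept and 51 with arrays scaled. On the deposited values 187 were called, 48.1% of them on the casein side, and with arrays scaled that share was 88.2%. Of the pathway features, limma called 0 without lactating array 1 or 2, with the reference against reference arrays subtracted, with exact 0 kept and with arrays scaled. With the reference against reference arrays subtracted, an unadjusted p under 0.05 by limma was reached by 4 of the 15, against 180 of 1117 features. With exact 0 kept it was reached by 3, against 247 of 1234 features. With arrays scaled it was reached by 3, against 285 of 1167 features. On the deposited values 3 passed, CERS2 and ENTPD4 on the casein side and AP3D1 on the other. The genes nearest to a member depended on the measure: by Spearman rho 0 to 2 of 5 were shared with Pearson r. Each log ratio already pairs both RNAs of an array. No pairing between arrays was made, because only the reference against reference arrays carry replicate numbers in the labels.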
